A study of Mus musculus with 6 samples.

Results

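The 36 genes described here mark striatal projection neurons, the medium spiny neurons that make up most of the striatum, which borders the subventricular zone (SVZ) on its lateral side. The SVZ is the germinal layer along the wall of the lateral ventricle. The genes were taken by symbol from a list of direct pathway, indirect pathway and shared striatal genes, and all 36 were found among the 18614 genes of the deposited table and among the 15126 genes tested. RNA came from the SVZ of Zhx2Δ/Δ mice (labelled KO, 3 libraries) and of Zhx2+/+ mice (WT, 3 libraries). The labels give no age, sex, strain or treatment, and do not say how the SVZ was dissected or whether each library came from its own animal. A p-value here therefore covers the variation among 6 libraries, which could be technical in part. The genotype tags of KO 2 and KO 3 name ZHX3 and ZHX4, while their titles name ZHX2.

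Projection neurons are GABAergic and send the output of the striatum to the pallidum and midbrain. Direct pathway neurons carry the D1 dopamine receptor and make substance P and dynorphin; indirect pathway neurons carry the D2 dopamine receptor and an adenosine receptor and make enkephalin. In both, dopamine acts on cyclic AMP through an adenylyl cyclase typical of striatum, and DARPP-32, encoded by Ppp1r1b, passes the signal on to protein phosphatase 1.

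Libraries held between 17037152 and 17685906 estimated counts. An undetected gene could have up to 3 counts, or between 0.170 and 0.176 CPM (counting error only). Zhx2 itself had 1139, 1004 and 959 counts in KO 1 to 3, against 735, 675 and 659 in WT 1 to 3, so its counts were not reduced under the KO label. Its edgeR log2 fold change was 0.61 (adjusted p = 0.163). Counts summed over the gene do not show which part of it was read, so they cannot decide the genotype. Each direction below is therefore that of the libraries labelled KO. In bulk RNA, fewer cells of a type and less RNA per cell cannot be told apart. The 20 choroid plexus genes of a marker list summed to 491, 573 and 345 CPM in KO 1 to 3, against 23338, 18216 and 5480.0 CPM in WT 1 to 3.

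Striatal projection neuron genes varied far more among the WT libraries than between the groups. They took 0.853, 1.10 and 1.13% of all counts in KO 1 to 3, against 0.238, 1.79 and 0.627% in WT 1 to 3. WT 1 had the smallest share and WT 2 the largest, WT 3 was second lowest, and the 3 KO-labelled libraries lay between WT 3 and WT 2. The WT range enclosed the KO-labelled range. WT 1 had the lowest level of the 6 libraries for 28 of the 36 genes, where 24.8% of all genes tested were lowest there. WT 2 had the highest level for 30 of 36, against 21.9% of all genes, and both held for 28 of 36, against 9.04%. The full order, in which WT 1 was lowest, WT 3 next, the KO-labelled libraries above both and WT 2 highest, was seen in 26 of 36 genes and in 4.17% of all genes tested. This order was noticed in these data and counted in the same data.

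**Figure D1:**
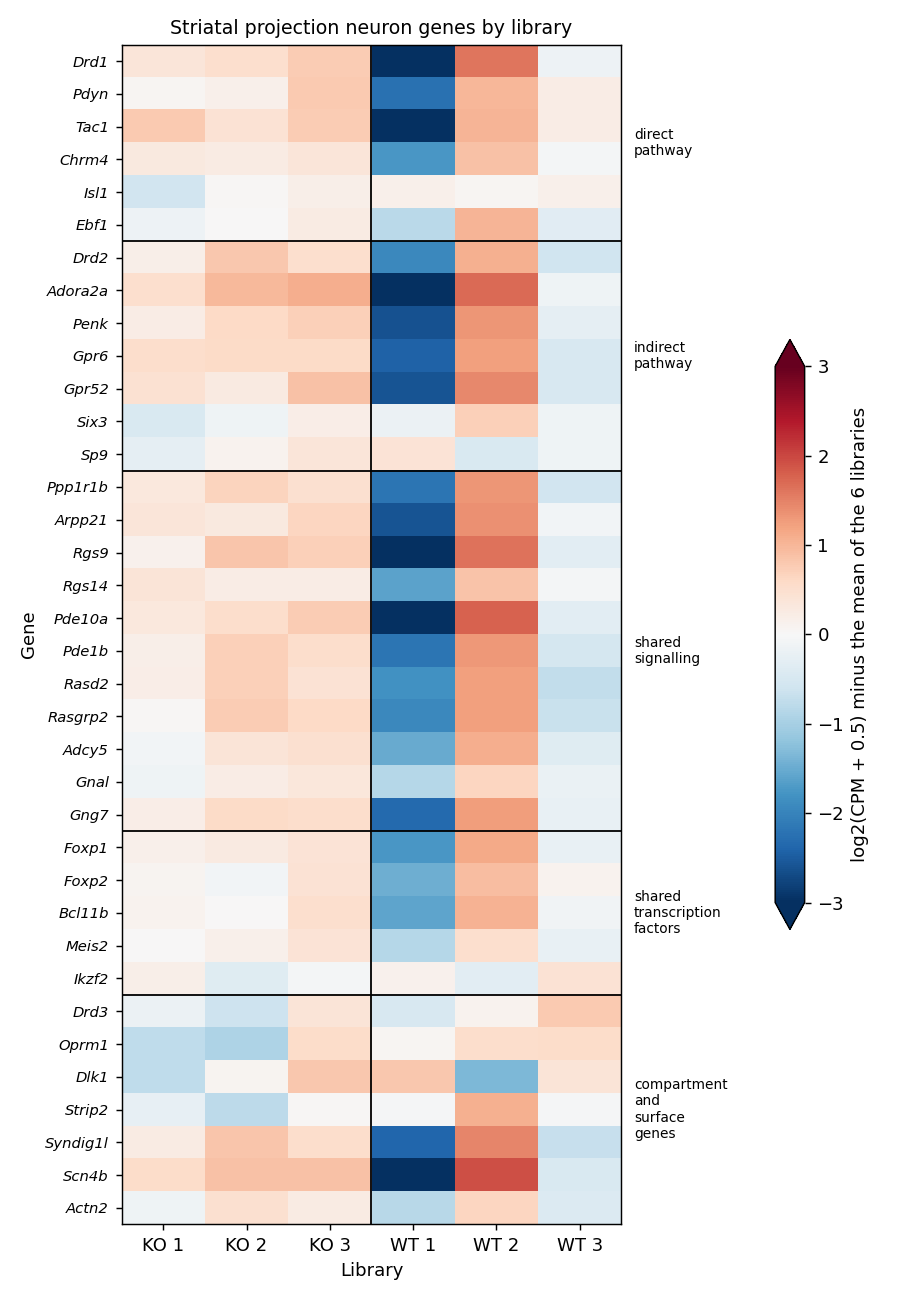
Level of each of the 36 genes in each library, as log2(CPM + 0.5) minus the mean of the 6 libraries, with KO-labelled libraries left and WT libraries right and genes grouped by role. The columns of WT 1 (lowest for 28 genes) and WT 2 (highest for 30 genes) stand apart (colours saturate at a difference of 3), and the 3 KO-labelled columns resemble each other.

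Within a group, the spread followed the same split. The highest KO-labelled library was a median of 1.44 times the lowest KO-labelled library over the 36 genes, while the highest WT library was a median of 7.84 times the lowest WT library. Over all genes tested these medians were 1.26 in KO-labelled and 1.29 in WT libraries. The standard deviation of log2 CPM was larger in WT than in KO-labelled libraries for 34 of 36 genes, against 54.5% of all genes; with 3 libraries a group this difference in spread was not tested. In 33 of the 36 genes the KO-labelled libraries were within 2-fold of each other, and KO 1 was the lowest of them for 25 genes and KO 3 the highest for 23. These counts were not made over all genes tested. The median ratio of KO-labelled libraries was smaller over all genes (1.26) than over the members (1.44), so closeness is not particular to the members. WT 2 was at least 4-fold above WT 1 for 24 of 36 genes, where 1.85% of all genes tested were, and WT 1 was at least 4-fold above WT 2 for 1 (Dlk1), where 1.79% were.

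Per transcript length, as FPKM summed over the transcripts of a gene, the most abundant member was Ppp1r1b, which encodes DARPP-32, a protein that inhibits protein phosphatase 1 once protein kinase A has phosphorylated it. It was at 644, 833 and 723 FPKM in KO 1 to 3, against 125, 1279 and 348 FPKM in WT 1 to 3. Penk, which encodes the enkephalin precursor, came second at 494, 658 and 712 FPKM in KO 1 to 3, against 73.8, 1068 and 362 FPKM in WT 1 to 3. Ppp1r1b was above Penk in every library except WT 3, although their ranges overlapped in each group. The means were 733 ± 95.1 FPKM in KO-labelled libraries and 584 ± 612 FPKM in WT libraries for Ppp1r1b. For Penk they were 622 ± 114 FPKM in KO-labelled libraries and 501 ± 511 FPKM in WT libraries (SD, n = 3 each). Arpp21 (300.1 ± 38.8 FPKM in KO-labelled libraries), Pde1b (286 ± 56.1), Gng7 (257 ± 37.7) and Rasd2 (170.0 ± 32.1) followed in the same order of means in both groups. Of the receptors, Drd2 (95.0 ± 21.8 FPKM in KO-labelled libraries) stood above Adora2a (52.8 ± 10.9) and Drd1 (37.6 ± 5.51). Chrm4 and Gpr6 were below these. The lowest members were Drd3, Oprm1 and Ikzf2, with group means between 0.420 FPKM (Ikzf2 in KO-labelled libraries) and 1.09 FPKM (Drd3 in WT libraries).

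Among direct pathway genes, Drd1, which encodes the D1 dopamine receptor that stimulates cyclic AMP formation, was at 117, 129 and 152 CPM in KO 1 to 3, against 10.2, 274 and 81.9 CPM in WT 1 to 3. WT 1 was the lowest library, WT 2 the highest, and the groups overlapped. Tac1, the precursor gene of substance P, was at 133, 105 and 131 CPM in KO 1 to 3, against 7.96, 158 and 91.0 CPM in WT 1 to 3. Its WT 2 to WT 1 ratio was 19.9, and that of Drd1 was 26.8. Pdyn, which encodes prodynorphin, was at 83.8, 90.0 and 140.0 CPM in KO 1 to 3, against 16.8, 160.1 and 94.7 CPM in WT 1 to 3, so that WT 3 lay above KO 1 and KO 2 and below KO 3. Chrm4, the M4 muscarinic receptor gene of direct pathway neurons, was at 71.0, 68.9 and 75.0 CPM in KO 1 to 3, against 16.9, 107 and 55.5 CPM in WT 1 to 3. The KO-labelled libraries were close to each other for this gene, with the highest 1.09 times the lowest.

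The transcription factor genes of this pathway behaved less uniformly. Ebf1, needed for direct pathway neuron differentiation and also expressed in mural cells, was at 11.2, 12.6 and 14.9 CPM in KO 1 to 3, against 6.87, 25.8 and 9.63 CPM in WT 1 to 3, with the same order of WT libraries at a smaller ratio (3.75). Isl1, a LIM homeodomain factor of direct pathway neurons that striatal cholinergic neurons express too, was at 11.0, 17.2 and 18.8 CPM in KO 1 to 3, against 18.6, 17.3 and 18.4 CPM in WT 1 to 3. The 3 WT libraries were nearly level for Isl1, and KO 1 was the lowest of the 6. No other direct pathway gene had this pattern.

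The indirect pathway genes had a median WT 2 to WT 1 ratio of 13.8, against 7.92 for the direct pathway genes. The ratios overlapped widely, from 0.934 to 26.8 for the 6 direct and from 0.543 to 64.6 for the 7 indirect pathway genes. Adora2a, the adenosine receptor gene of these neurons, was at 96.6, 134 and 144 CPM in KO 1 to 3, against 3.41, 220.5 and 62.0 CPM in WT 1 to 3, and its WT 2 to WT 1 ratio of 64.6 was the largest of the 36. Drd2, the receptor that inhibits cyclic AMP formation and that cholinergic and some non-striatal neurons also carry, was at 172, 264 and 213 CPM in KO 1 to 3, against 38.9, 319 and 99.1 CPM in WT 1 to 3. Its ratio of 8.18 was far below that of Adora2a. Penk was at 727, 940.5 and 1024 CPM in KO 1 to 3, against 101, 1561 and 515 CPM in WT 1 to 3. The Gs-coupled orphan receptor genes followed: Gpr6 was at 45.5, 47.2 and 47.3 CPM in KO 1 to 3, against 5.41, 74.8 and 22.6 CPM in WT 1 to 3, and Gpr52 at 35.6, 31.0 and 47.3 CPM in KO 1 to 3, against 3.84, 70.8 and 18.2 CPM in WT 1 to 3. For each of these genes WT 1 and WT 3 were below every KO-labelled library and WT 2 above.

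Six3 and Sp9, transcription factor genes required for the formation of indirect pathway neurons, departed from this. Six3 was at 55.6, 69.2 and 87.1 CPM in KO 1 to 3, against 67.4, 125 and 69.0 CPM in WT 1 to 3, with WT 2 high and the other 5 libraries close. Sp9, which migrating neuroblasts also express, was at 33.9, 44.0 and 52.7 CPM in KO 1 to 3, against 54.6, 29.6 and 37.3 CPM in WT 1 to 3. Here WT 1 was the highest library and WT 2 the lowest, the reverse of the order of most other members.

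The receptor genes that separate the pathways lie on chromosome 13, 54051183 to 54055658 (Drd1) and on chromosome 9, 49340360 to 49408177 (Drd2) in GRCm38, the assembly of mm10; Tac1 lies on chromosome 6, 7555061 to 7562978. The promoters of the receptor pair and of Tac1 are shown because these genes define the pathways and Tac1 carried a motif of a factor downstream of cyclic AMP. Each covers 250 bases before to 50 bases after the first start listed for the gene in the RefSeq promoter table (GRCm38.p6), which for Drd2 lies inside the gene's outermost start, given 5′ to 3′ on the strand of the gene, and capitals mark matches to the motifs searched. Drd1 is at chr13:54055609-54055908, minus strand, Drd2 at chr9:49340153-49340452, plus strand and Tac1 at chr6:7554811-7555110, plus strand.
Drd1: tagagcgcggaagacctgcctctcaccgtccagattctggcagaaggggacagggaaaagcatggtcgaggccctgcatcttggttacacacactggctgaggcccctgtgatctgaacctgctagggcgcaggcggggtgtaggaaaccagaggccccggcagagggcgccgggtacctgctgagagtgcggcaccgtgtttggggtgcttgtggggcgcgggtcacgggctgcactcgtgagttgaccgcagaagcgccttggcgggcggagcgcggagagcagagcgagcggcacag
Drd2: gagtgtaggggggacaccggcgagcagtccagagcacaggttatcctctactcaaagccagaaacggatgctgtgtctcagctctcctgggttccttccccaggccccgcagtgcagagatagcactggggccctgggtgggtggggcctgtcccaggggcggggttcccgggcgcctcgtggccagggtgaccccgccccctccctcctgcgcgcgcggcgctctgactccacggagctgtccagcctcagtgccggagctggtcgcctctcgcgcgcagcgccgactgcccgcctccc
Tac1: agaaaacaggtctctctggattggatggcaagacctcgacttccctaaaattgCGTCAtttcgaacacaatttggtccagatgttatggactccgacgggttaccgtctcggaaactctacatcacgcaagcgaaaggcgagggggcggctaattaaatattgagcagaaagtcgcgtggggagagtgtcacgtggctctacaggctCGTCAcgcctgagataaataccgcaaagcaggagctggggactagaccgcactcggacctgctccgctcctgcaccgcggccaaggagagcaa

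Each motif was sought on both strands. The core of the cyclic AMP response element, TGACG, was in 4 of the 27 member promoters in the set searched (Dlk1, Gpr6, Isl1 and Tac1) and in 21.0% of all 27025 promoters. The Tac1 promoter held 2 matches to it, both on the opposite strand. A TATA box, written TATAAA, was in 3 member promoters (Bcl11b, Meis2 and Rgs9) and in 14.2% of all. The forkhead motif TGTTTAC was in 1 (Dlk1) and in 3.55% of all. The MEIS motif TGACAG was in 4 (Arpp21, Gpr6, Pde1b and Six3) and in 19.3% of all. It shares its first 4 letters with the first motif, and no matches overlap in the promoters shown. Drd1 and Drd2 held no match to the 4 motifs in this window. A match is a description of letters and not a site.

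Genes of the signalling machinery common to both pathways were the most uniform set: WT 1 was lowest and WT 2 highest for all 11. Ppp1r1b was at 1094, 1409.7 and 1224 CPM in KO 1 to 3, against 192, 2216 and 591 CPM in WT 1 to 3. Arpp21, a phosphoprotein gene regulated by cyclic AMP, was at 832, 792 and 1005 CPM in KO 1 to 3, against 108, 1681 and 607 CPM in WT 1 to 3. The KO-labelled libraries lay between WT 3 and WT 2 for both. Pde10a, which encodes the striatal phosphodiesterase that degrades both cyclic nucleotides, was at 537, 629 and 739 CPM in KO 1 to 3, against 51.4, 1467 and 349 CPM in WT 1 to 3, and its WT 2 to WT 1 ratio of 28.6 was the largest of the 11. Pde1b, a calmodulin-dependent phosphodiesterase gene, was at 673, 981 and 863 CPM in KO 1 to 3, against 129, 1471 and 415 CPM in WT 1 to 3. Both phosphodiesterase genes had their minimum in WT 1.

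Rgs9, whose product speeds up the switching off of G proteins in striatal neurons, was at 270.4, 438 and 407 CPM in KO 1 to 3, against 30.5, 757 and 197 CPM in WT 1 to 3. Rgs14, a relative of it, was at 55.9, 50.0 and 50.1 CPM in KO 1 to 3, against 13.9, 78.1 and 41.0 CPM in WT 1 to 3. The WT 2 to WT 1 ratio was 24.8 for Rgs9 and 5.64 for Rgs14. Of the cyclase complex, Adcy5, the main striatal adenylyl cyclase gene, was at 445, 616 and 648 CPM in KO 1 to 3, against 163, 992 and 366 CPM in WT 1 to 3. Gng7, a G protein gamma subunit gene, was at 743, 954 and 932 CPM in KO 1 to 3, against 127, 1541 and 549 CPM in WT 1 to 3. Gnal, the alpha subunit gene that couples D1 and adenosine receptors to the cyclase and is also used in olfactory neurons, was at 552, 708 and 766 CPM in KO 1 to 3, against 336, 956 and 527 CPM in WT 1 to 3. Gnal had the smallest ratio of the 11 (2.85), while that of Adcy5 was 6.10 and that of Gng7 was 12.1. Rasd2, a small GTPase gene also called Rhes, was at 404, 572 and 471 CPM in KO 1 to 3, against 98.5, 824 and 209 CPM in WT 1 to 3, and Rasgrp2, an exchange factor gene for Rap1, at 89.4, 148 and 132 CPM in KO 1 to 3, against 22.4, 206 and 54.4 CPM in WT 1 to 3.

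Transcription factor genes shared by the pathways had WT 1 lowest and WT 2 highest except Ikzf2, with WT 2 to WT 1 ratios between 2.61 (Meis2) and 7.50 (Foxp1). Foxp1 was at 153, 167 and 186 CPM in KO 1 to 3, against 41.0, 307 and 118 CPM in WT 1 to 3. Foxp2 was at 41.8, 37.5 and 53.7 CPM in KO 1 to 3, against 13.9, 75.8 and 42.7 CPM in WT 1 to 3, with WT 3 inside the KO-labelled range. Bcl11b, also known as Ctip2 and needed for projection neuron differentiation, was at 154, 143 and 202 CPM in KO 1 to 3, against 47.4, 294 and 131 CPM in WT 1 to 3. Meis2, which neuroblasts express as well, was at 317, 350.5 and 419.7 CPM in KO 1 to 3, against 173, 450.1 and 270.0 CPM in WT 1 to 3. Ikzf2, which encodes Helios, was at 4.77, 3.11 and 3.99 CPM in KO 1 to 3, against 4.60, 3.24 and 5.80 CPM in WT 1 to 3, a low level in every library, with WT 3 highest.

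Of the remaining genes, Scn4b, the sodium channel beta 4 subunit gene, had the second largest ratio (54.8) and was at 421, 526 and 524 CPM in KO 1 to 3, against 20.1, 1103 and 209 CPM in WT 1 to 3. Syndig1l, a gene for a transmembrane protein, was at 164, 246 and 198 CPM in KO 1 to 3, against 25.9, 379 and 85.6 CPM in WT 1 to 3. Actn2, an alpha-actinin gene, was at 55.6, 85.9 and 72.3 CPM in KO 1 to 3, against 34.3, 96.8 and 45.8 CPM in WT 1 to 3. All 3 had WT 1 lowest and WT 2 highest. Strip2, whose product belongs to striatin complexes, was at 104, 71.9 and 126 CPM in KO 1 to 3, against 120.3, 260.0 and 119 CPM in WT 1 to 3, where WT 2 was more than 2-fold above every other library and KO 2 was the lowest. Drd3, the D3 dopamine receptor gene of ventral striatum, had 35, 24 and 56 counts in KO 1 to 3 and 29, 43 and 77 in WT 1 to 3, and Oprm1, the mu opioid receptor gene of striosomes, 10, 8 and 37 in KO 1 to 3 and 26, 36 and 38 in WT 1 to 3. At these counts WT 3 was highest for both. Dlk1, a transmembrane relative of Notch ligands, was at 58.1, 105 and 174 CPM in KO 1 to 3, against 174, 38.7 and 128 CPM in WT 1 to 3, with WT 2 lowest and WT 1 level with KO 3 at the top.

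**Figure D2:**
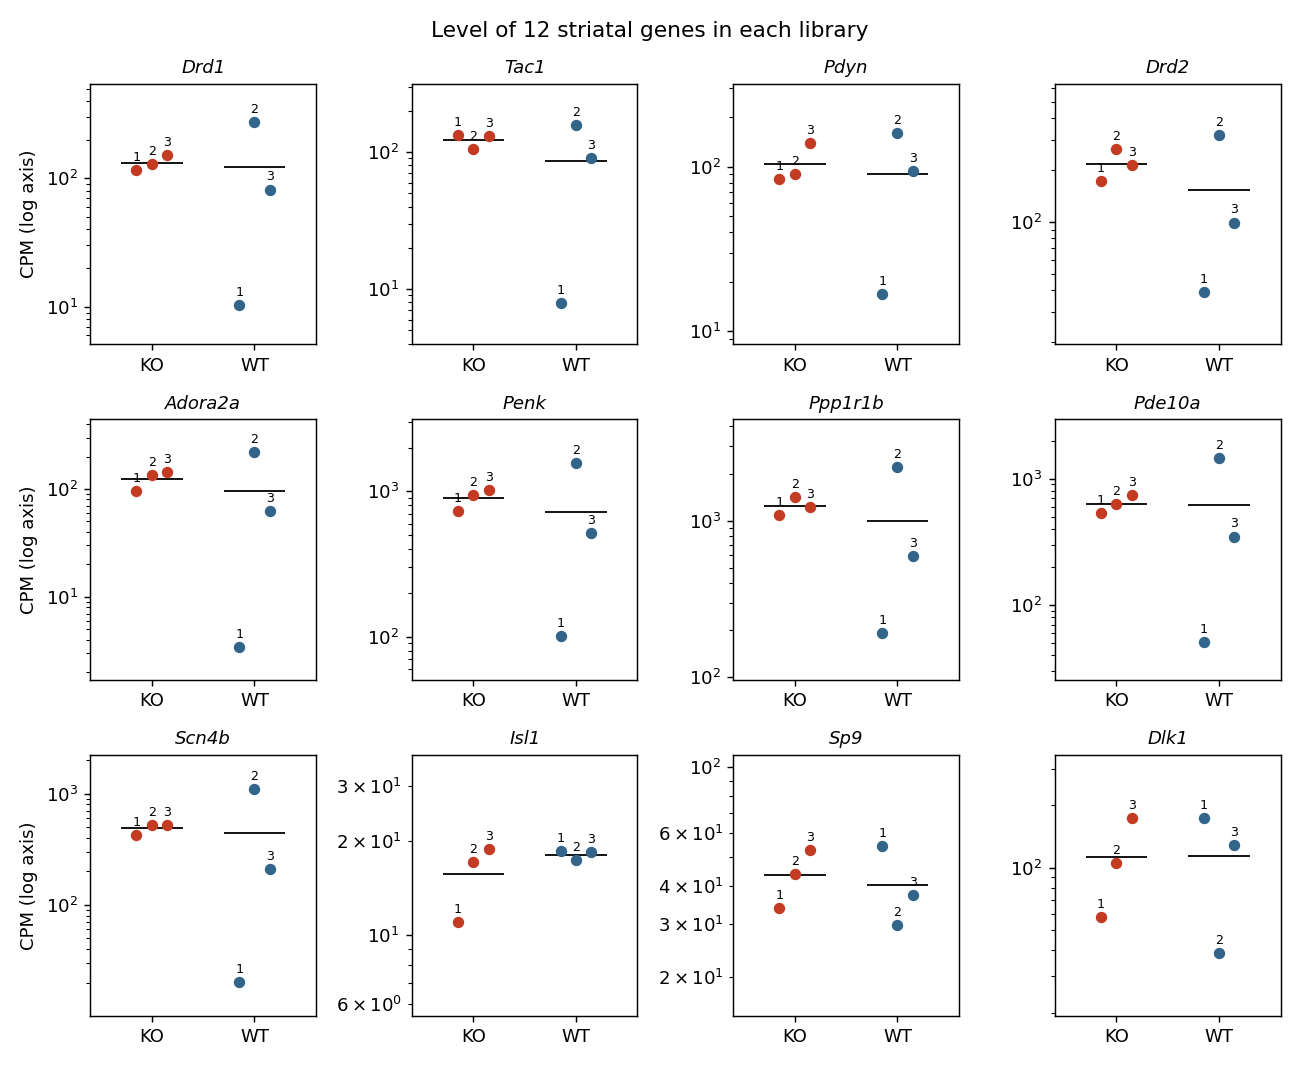
CPM on a log axis for 12 genes, with the KO-labelled libraries left and the WT libraries right; digits are the replicate numbers and lines the group means. Isl1 was level in WT (between 17.3 and 18.6 CPM), Sp9 and Dlk1 were highest in WT 1, and the other 9 genes were lowest in WT 1 and highest in WT 2.

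Ratios between members within a library do not depend on the share of striatal RNA if all members scale alike. Gene length cancels when 1 ratio is followed across libraries. The CPM of Drd1 over that of Drd2 was 0.679, 0.490 and 0.714 in KO 1 to 3, against 0.263, 0.860 and 0.826 in WT 1 to 3, and WT 1 was the lowest. Adora2a over Drd2 was 0.562, 0.508 and 0.675 in KO 1 to 3, against 0.0876, 0.692 and 0.626 in WT 1 to 3, so that WT 1 again stood apart while the other 5 libraries were between 0.508 and 0.692. Tac1 over Penk, a direct against an indirect pathway peptide, was 0.183, 0.112 and 0.128 in KO 1 to 3, against 0.0787, 0.101 and 0.177 in WT 1 to 3. Ppp1r1b over Penk was 1.50, 1.50 and 1.20 in KO 1 to 3, against 1.90, 1.42 and 1.15 in WT 1 to 3. The groups overlapped in all 4 ratios; these are descriptions with no test.

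Between the groups, no member passed. edgeR called 0 of 36 genes at an adjusted p of 0.05, as it did for 0% of all 15126 genes; the members' adjusted p ranged from 0.614 (Strip2) to 0.997 (Foxp2). At an unadjusted p under 0.05 there were 0 of 36, where 9.07% of all genes were. DESeq2 called 0 of 36, against 2.06% of all genes. limma-voom called 0 of 36 and also 0 of all 15126 genes. The log2 fold change was above 0 for 28 of 36 genes, against 53.4% of all genes, with a median of 0.17 over the members and 0.018 over all genes tested. The groups were separate for none of the 36, where all KO-labelled libraries were above all WT libraries in 8.00% and below them in 8.74% of all genes. Exact permutation p-values for single members were between 0.3 and 1.0 (two-sided), and 3 against 3 libraries cannot go below 0.1.

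In the direct pathway, the edgeR log2 fold change of KO-labelled over WT libraries, with Benjamini-Hochberg adjustment, was 0.12 (SE 0.94, adjusted p = 0.982) for Drd1, 0.53 (SE 0.86, adjusted p = 0.881) for Tac1 and 0.21 (SE 0.71, adjusted p = 0.950) for Pdyn. It was 0.26 (SE 0.57, adjusted p = 0.916) for Chrm4 and -0.21 (SE 0.20, adjusted p = 0.789) for Isl1. In the indirect pathway it was 0.51 (SE 0.69, adjusted p = 0.854) for Drd2, 0.39 (SE 1.11, adjusted p = 0.938) for Adora2a, 0.31 (SE 0.83, adjusted p = 0.936) for Penk and -0.30 (SE 0.29, adjusted p = 0.783) for Six3. The standard error exceeded the fold change for each of these except Isl1 and Six3. For the shared signalling genes, Ppp1r1b had 0.31 (SE 0.78, adjusted p = 0.928), Rgs9 0.18 (SE 0.96, adjusted p = 0.972), Pde10a 0.029 (SE 0.99, adjusted p = 0.994) and Adcy5 0.17 (SE 0.61, adjusted p = 0.955) by the same test. Foxp1 had 0.12 (SE 0.64, adjusted p = 0.972), Bcl11b 0.077 (SE 0.59, adjusted p = 0.982) and Meis2 0.28 (SE 0.34, adjusted p = 0.832). Drd3 had -0.35 (SE 0.48, adjusted p = 0.851), and Oprm1 -0.84 (SE 0.60, adjusted p = 0.721) and Strip2 -0.73 (SE 0.37, adjusted p = 0.614) were, with Six3, the 3 members with the smallest p, all lower in the KO-labelled libraries and none past the threshold.

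By role, the median log2 fold change was 0.17 for the 6 direct pathway genes (4 above 0), 0.31 for the 7 indirect pathway genes (6 above 0), 0.23 for the 11 shared signalling genes (11 above 0), 0.077 for the 5 shared transcription factors (4 above 0) and -0.019 for the 7 remaining genes (3 above 0). edgeR compares arithmetic group levels, to which WT 2 contributes most; on the mean of log2 CPM over the 36 genes, the library means were 6.88 ± 0.21 in KO-labelled and 6.29 ± 1.31 in WT libraries (SD, n = 3 each). limma-voom, which works on that scale, gave a median log2 fold change of 0.66 over the 36.

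The direction depended on which WT library was left out. Without WT 1, 4 of 36 genes had a log2 fold change above 0, against 51.1% of all genes, and the median was -0.20. Without WT 2, 29 of 36 were above 0, against 50.0%, with a median of 1.09. In that fit edgeR called 0 of all 15322 genes and so no member, and 13 of 36 had an unadjusted p under 0.05, against 10.6% of all genes. DESeq2 without WT 2, tried after the data were seen, called 7 of 36, all higher in the KO-labelled libraries, against 2.27% of all genes: Drd2, Gpr6, Ppp1r1b, Rasd2, Rasgrp2, Adcy5 and Actn2. Rasd2 had the smallest adjusted p there, with a log2 fold change of 1.65 (SE 0.31, DESeq2 adjusted p = 3.28e-05), and Actn2 the smallest fold change, 0.83 (SE 0.24, DESeq2 adjusted p = 0.0330). DESeq2 called no member with any other single library left out, nor with all 6. WT 2 had the highest level for 30 of the 36 members, so leaving it out lowers the WT side for most of them. The 7 calls follow from an order already seen in the same data and are not separate evidence of a group difference.

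**Figure D3:**
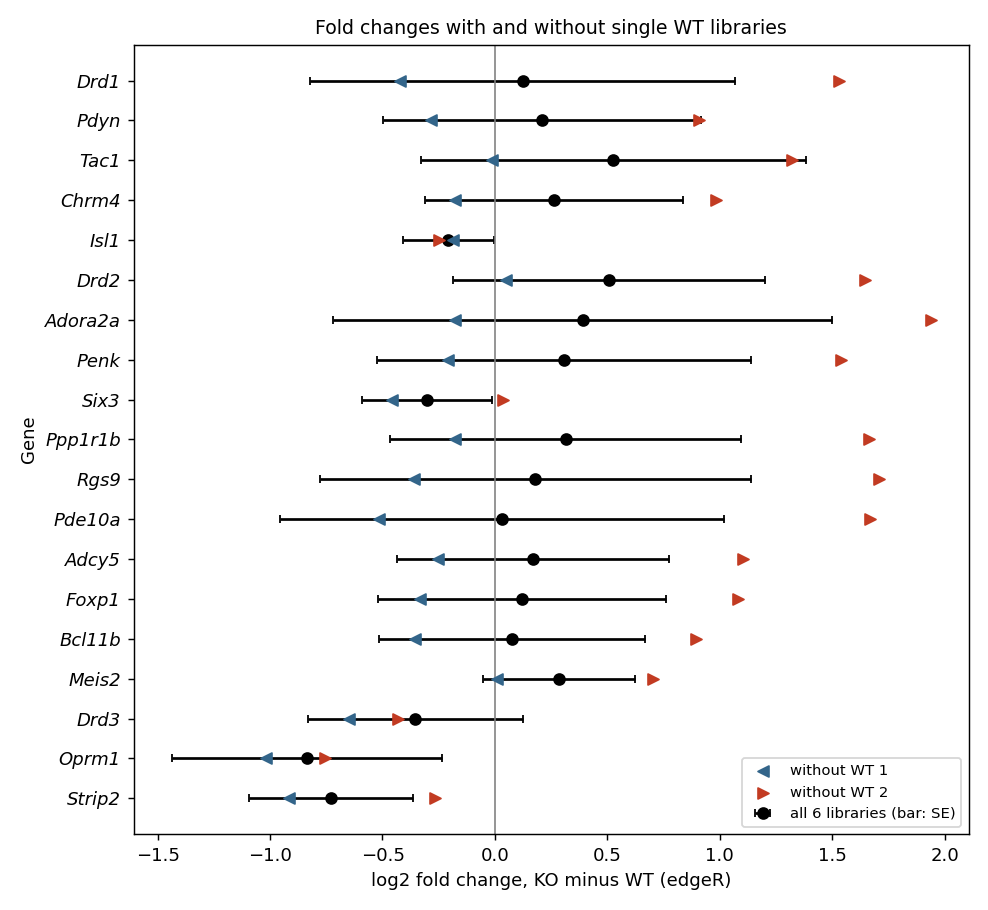
edgeR log2 fold change of KO-labelled over WT libraries for the 19 members given with a test, with all 6 libraries (black, bars are the SE), without WT 1 (blue) and without WT 2 (red). Leaving out WT 1 moves most genes to near or below 0 and leaving out WT 2 moves most well above 0; Isl1, Drd3, Oprm1 and Strip2 stay below 0 in all 3 fits.

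A list of 19 other striatal genes, none of them members, varied the same way. Like the members, it was chosen with earlier results of these data known. They summed to 3677, 4588 and 4353 CPM in KO 1 to 3, against 1719, 6341 and 2655 CPM in WT 1 to 3, with WT 1 lowest for 16 and WT 2 highest for 15 of the 19. edgeR called 0 of the 19, with 0 at an unadjusted p under 0.05 and a median log2 fold change of 0.18. With the mean log2 level of these 19 genes as a covariate in edgeR, the median over the 36 members was 0.026, 20 of 36 were above 0, against 53.6% of all genes, and 2 had an unadjusted p under 0.05, against 11.5%. These were Strip2 (log2 fold change -0.92, SE 0.26, adjusted p = 0.385) and Six3 (-0.49, SE 0.18, adjusted p = 0.415). The covariate has much the same library order as the members, so it takes up that part of their variation. The smaller median is therefore no separate result.

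Dopamine and cyclic AMP pathway genes that other neurons use too had a steadier sum. That sum followed the striatal order over the libraries, although it includes Gnas, which ran the other way in WT 1 and WT 2. Of 22 listed, 21 were tested (Drd4 was not), and none passed in edgeR, with 14 above and 7 below 0, 0 at an unadjusted p under 0.05 and a median log2 fold change of 0.089. They summed to 9166, 9334 and 9624 CPM in KO 1 to 3, against 7454, 9902 and 8423 CPM in WT 1 to 3. WT 1 was lowest for 11 and WT 2 highest for 11 of the 21, against 24.8% and 21.9% of all genes. Ppp3ca, second in mean CPM and a catalytic subunit gene of calcineurin, was at 1285, 1528 and 1539 CPM in KO 1 to 3, against 712, 1897 and 984 CPM in WT 1 to 3. Gnas, first in mean CPM and the alpha subunit gene of the Gs protein, was at 1504, 1599 and 1458 CPM in KO 1 to 3, against 1988, 837 and 1519 CPM in WT 1 to 3, and was the single gene of the 21 with WT 1 highest.

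Markers of neighbouring regions differed between libraries in orders of their own. The 6 septal genes, from the medial side of the ventricle, summed to 287, 466 and 449 CPM in KO 1 to 3, against 890.0, 117 and 544 CPM in WT 1 to 3; 5 of the 6 were highest in WT 1 and 5 lowest in WT 2, the reverse of the striatal genes. Zic1, a transcription factor gene of septum, was at 149.8, 236 and 238 CPM in KO 1 to 3, against 495, 58.7 and 288 CPM in WT 1 to 3. The 9 cortical excitatory neuron genes summed to 1301, 272 and 105 CPM in KO 1 to 3, against 155, 99.9 and 688 CPM in WT 1 to 3, so that KO 1 and WT 3 held the most. Slc17a7, which encodes the vesicular glutamate transporter of these neurons, was at 939, 174 and 13.6 CPM in KO 1 to 3, against 43.6, 34.5 and 455 CPM in WT 1 to 3. It weighs most in the sum. Cux2, second of the list in mean CPM, varied less and had KO 1 below KO 3 and WT 1. Its levels were 49.5, 33.2 and 52.2 CPM in KO 1 to 3, against 56.5, 34.9 and 70.2 CPM in WT 1 to 3. None of these 15 septal and cortical genes was at 0 counts in any library, and their part in the striatal pattern was not tested.

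General neuron genes did not follow the striatal order: the 6 listed summed to 4729, 4147 and 4492 CPM in KO 1 to 3, against 3488, 3689 and 4359 CPM in WT 1 to 3. The GABA neuron genes Gad1, Gad2 and Slc32a1 summed to 1301, 1782 and 2086 CPM in KO 1 to 3, against 1671, 1513 and 1647 CPM in WT 1 to 3, and WT 1 and WT 2 differed little in them. The 11 striatal interneuron genes summed to 499.8, 494 and 597 CPM in KO 1 to 3, against 336, 449 and 459 CPM in WT 1 to 3. Sst, the highest of the list in mean CPM, weighs most in this sum. Chat, Slc5a7 and Slc18a3 mark the cholinergic cells that share Isl1 and Drd2. Chat was at 9.37, 21.6 and 29.7 CPM in KO 1 to 3, against 9.09, 15.2 and 13.2 CPM in WT 1 to 3. Slc5a7 was at 15.7, 28.3 and 54.2 CPM in KO 1 to 3, against 18.1, 26.3 and 24.4 CPM in WT 1 to 3. Slc18a3 was at 4.95, 13.8 and 18.0 CPM in KO 1 to 3, against 6.71, 8.64 and 7.08 CPM in WT 1 to 3. Neuroblast genes, whose cells share Sp9 and Meis2, summed to 297, 364 and 366 CPM in KO 1 to 3, against 455, 299 and 348 CPM in WT 1 to 3, with WT 1 highest, as for Sp9. By gene, 4 of the 10 were highest and 1 was lowest in WT 1, while 4 were lowest and 2 highest in WT 2. Dlx1, a homeobox gene of GABAergic precursors, was at 53.4, 95.8 and 78.3 CPM in KO 1 to 3, against 131, 32.7 and 76.3 CPM in WT 1 to 3. Nrep, with Dlx1 the highest of the list in mean CPM, was at 56.7, 49.1 and 50.5 CPM in KO 1 to 3, against 42.6, 68.1 and 44.9 CPM in WT 1 to 3, so that these genes went opposite ways in WT 1 and WT 2.

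Choroid plexus genes separated the groups and did not order the WT libraries as the striatal genes did. All 20 were lower in the KO-labelled libraries, by a median of -5.22 on the log2 scale, and 18 were highest in WT 1. edgeR called 0 of the 20 at an adjusted p of 0.05, and 20 had an unadjusted p under 0.05. Ttr, the transthyretin gene, was at 13.0, 114 and 13.6 CPM in KO 1 to 3, against 15337, 10669.5 and 3133 CPM in WT 1 to 3. Tmem72 was at 0 counts in KO 1 and Lmx1a in KO 1 and KO 3. WT 1 and WT 2, the extremes for striatal genes, were both high in choroid plexus genes. The 12 ependymal genes summed to 139, 123 and 95.9 CPM in KO 1 to 3, against 286, 199.9 and 196 CPM in WT 1 to 3. With the choroid plexus genes removed before scaling, the members' median log2 fold change was 0.17 and 28 of 36 were above 0, as with them.

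**Figure D4:**
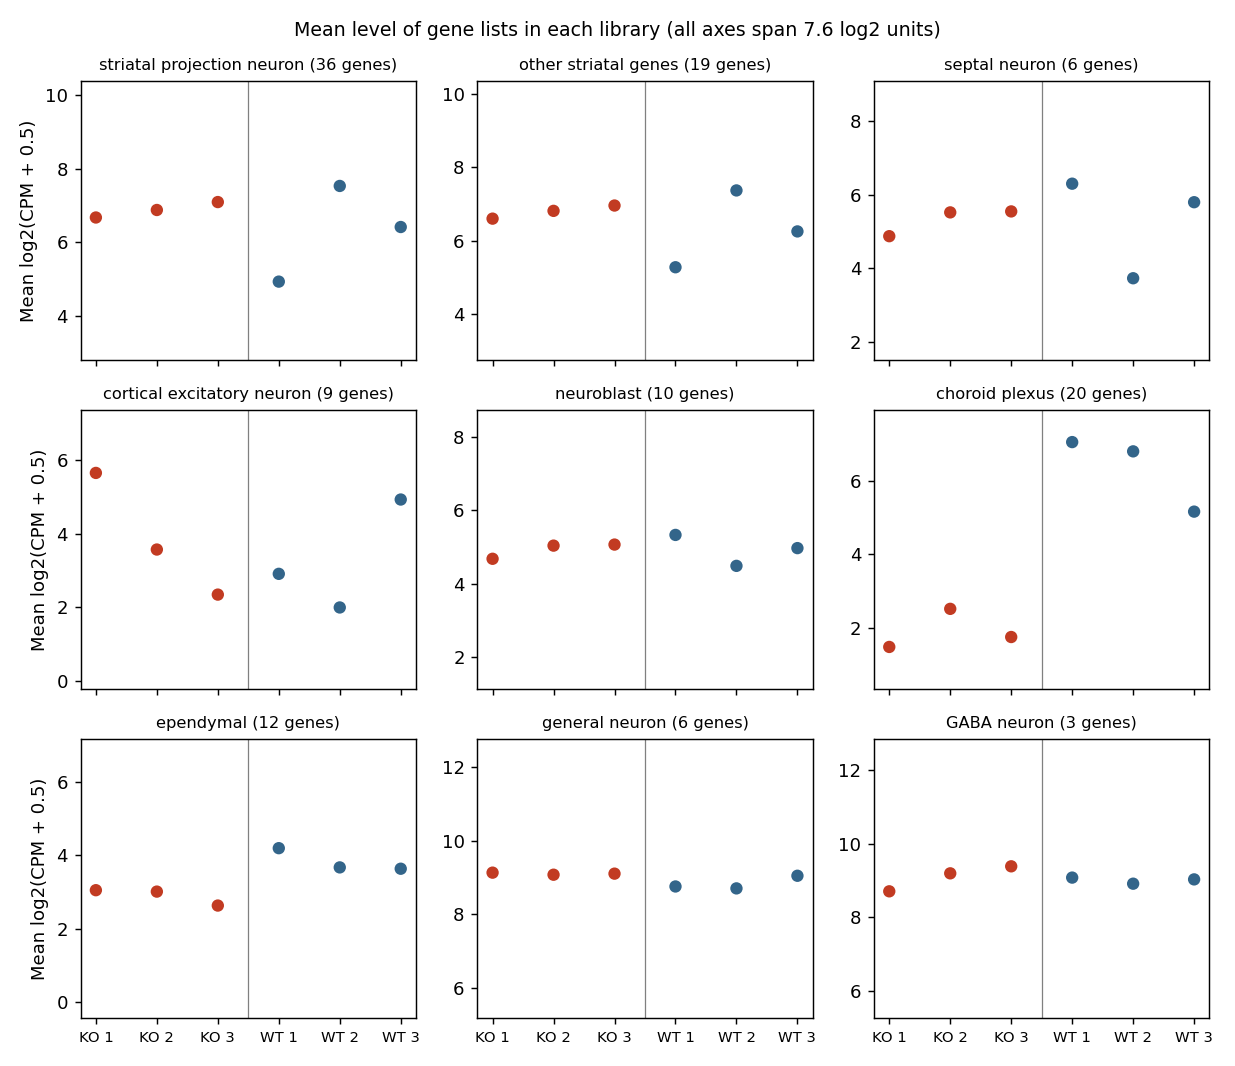
Mean log2(CPM + 0.5) of the striatal projection neuron genes and 8 other lists in each library, KO-labelled libraries left of the line and WT libraries right; every axis spans the same range. The 36 striatal genes and the 19 other striatal genes show one order, the septal genes the reverse among WT libraries, and the choroid plexus genes a gap between the groups.

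The remaining cell type lists, summed per library, differed in library order. Oligodendrocyte genes summed to 19250.3, 11413 and 8322 CPM in KO 1 to 3, against 13927, 13743 and 13636 CPM in WT 1 to 3. Astrocyte genes were at 2708, 2632 and 2402 CPM in KO 1 to 3 and 2539, 1795 and 2587 CPM in WT 1 to 3, with WT 2 lowest. Microglia genes were at 569, 612 and 509 CPM in KO 1 to 3 and 409, 507 and 469.5 CPM in WT 1 to 3, and endothelial and mural genes at 304, 394 and 296 CPM in KO 1 to 3 and 256, 352 and 316 CPM in WT 1 to 3. Both had WT 1 lowest and, among WT libraries, WT 2 highest, as the striatal genes did, but KO 2 was the highest of the 6. WT 1 was lowest for 6 of 8 microglia genes and 6 of 7 endothelial and mural genes, and WT 2 highest for 2 of each, against the 24.8% and 21.9% of all genes; their part in the striatal pattern was not tested.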

How the data were processed

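For each of 61481 RefSeq transcripts, the deposited file holds an estimated count per library (per the file headers and values) and an FPKM, which the authors scaled by length and depth as far as the deposited values show. The submitters' processing notes name mm10 and limma 3.40.6; no source used here names the aligner or the counting tool. The authors' group means were not used.

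Counts were summed per NCBI gene number to 18614 genes, rounded, and named from the RefSeq gene table of GRCm38.p6 (18489 matched; the other 125 stayed in under their number). KO-labelled and WT libraries were compared in R 4.3.3 with edgeR 4.0.16: TMM scaling, filterByExpr (minimum count 10), a robust two-sided quasi-likelihood test with no covariate, and Benjamini-Hochberg adjustment over 15126 genes. The SE was derived from the fold change and F. CPM are TMM-scaled; means carry the SD. The alternatives were other scaling and filters, DESeq2 1.42.0, limma-voom (limma 3.58.1), a replicate block, single libraries left out, KO 1 alone, choroid plexus genes removed and a striatal covariate. The procedure was checked on simulated counts, drawn from a shared mean profile without the differences between libraries seen here. That check does not show how well the tests detect changes in the striatal genes. The members and lists were chosen with earlier results of these data known. Log2 fold changes are printed for 16 members chosen by role and the 3 with the smallest p. Of other lists, genes with the highest mean are named (Gnas, Ppp3ca, Zic1, Slc17a7, Cux2, Sst, Dlx1, Nrep, Ttr). Tmem72, Lmx1a, Chat, Slc5a7, Slc18a3 and the DESeq2 values of Rasd2 and Actn2 were chosen after their values were seen. No source used here says whether counting used strand, so overlapping genes may share reads.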

Additional observations from a re-analysis of the deposited data

How the results depend on the processing

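The 0 members called in edgeR stood under every other edgeR, DESeq2 and limma-voom setting run, except that 7 were called by DESeq2 without WT 2, tried after the data were seen. Over all genes, DESeq2 called 311, limma-voom 0 and edgeR between 0 and 137 with single libraries left out (137 without WT 3). Members above 0 numbered from 4 to 29 when a library was left out and 16 with KO 1 alone, and the median between -0.20 and 1.09. All 19 members given with a test kept their direction under DESeq2 size factors, upper quartile scaling, no filter, DESeq2, limma-voom, the replicate block and removal of choroid plexus genes, as did the 17 of them left by the filter of 5 CPM. The median was 0.66 with limma-voom and 0.63 with the replicate block, which called 0 genes. Same-numbered libraries did not deviate together (correlations of -0.17, -0.068 and -0.058 across genes). Taken around the means of small groups, these correlations cannot decide whether the libraries were paired.

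With single libraries left out, the sign changed for 14 of the 19, whose log2 fold change ranged from -0.42 to 1.53 for Drd1, -0.28 to 0.91 for Pdyn, -0.014 to 1.32 for Tac1, -0.18 to 0.98 for Chrm4, -0.18 to 1.94 for Adora2a, -0.21 to 1.54 for Penk, -0.18 to 1.66 for Ppp1r1b, -0.36 to 1.71 for Rgs9, -0.52 to 1.67 for Pde10a, -0.25 to 1.10 for Adcy5, -0.33 to 1.08 for Foxp1, -0.36 to 0.89 for Bcl11b, -0.73 to 0.12 for Drd3 and -0.48 to 0.038 for Six3. With KO 1 alone the sign also changed, to -0.063 for Drd1, -0.11 for Pdyn, -0.28 for Rgs9, -0.21 for Pde10a, -0.19 for Adcy5, -0.017 for Foxp1 and -0.033 for Bcl11b, and with the striatal covariate to -0.012 for Drd1, -0.14 for Pdyn, -0.042 for Pde10a, -0.085 for Adcy5, -0.11 for Foxp1 and -0.18 for Bcl11b. Members with WT 1 lowest (28), WT 2 highest (30) and separate groups (0) were counted alike under each scaling, filter and choroid plexus alternative. Drd3 and Oprm1, with at most 77 counts, are limited by depth. The cause of these changes was not tested.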
